A study of Homo sapiens with 6 samples.

Results

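FHIT, WWOX, IMMP2L, MACROD2, DPYD, GPHN, EXOC4, RAD51B, NAALADL2 and LPP are 10 very long human genes that lie at common fragile sites. They were picked by symbol out of the 63241 Ensembl genes in the deposited count files, by a rule written with their response to NCD in these libraries already known. Their values under NCD are therefore given as a description, with no test. Of the 10 genes, 9 were among the 15295 genes that passed the filter on low counts, and NAALADL2 fell below it. The label "very long" held for every member, since they span from 674.4 kb (GPHN) to 2057.8 kb (MACROD2) in GENCODE release 29 on GRCh38. Fragility was not measured in these libraries, so that label rests on background knowledge.

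Common fragile sites are chromosome regions that tend to form gaps and breaks when DNA replication is slowed. Many of them coincide with the body of a very long gene, whose transcription takes hours and through which replication forks must travel far between origins. Deletions within several of these genes, FHIT and WWOX among them, are well known from tumors and tumor cell lines.

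MDA-MB-231 cells, a triple-negative line from human breast cancer whose genotype is labelled WT, were exposed for 24 h to 5 μM nitidine chloride (NCD), a plant alkaloid, or to 0.1% DMSO, the vehicle. RNA-seq was available for 3 libraries per group. The cell line field names MDA-MB-231 for all 6 libraries, whereas the free text of NCD replicates 2 and 3 gives other line numbers. The labels do not say whether the 3 libraries of a group came from separate cultures, so the spread between them, and every p-value built on it, may be technical.

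Library totals were 18223554 to 19410782 counts with DMSO and 18232123 to 21629618 with NCD. The mesenchymal genes VIM, CD44, AXL and MSN were abundant in both groups (3060, 977, 856 and 753 CPM with DMSO, 2640, 277, 399 and 213 CPM with NCD, where CPM is the usual count rate per library, on library sizes scaled by TMM). Of these, CD44, AXL and MSN were lower with NCD (log2 fold changes -1.82, -1.10 and -1.82). The estrogen receptor ESR1, the progesterone receptor PGR and the epithelial cadherin CDH1 had at most 7 counts in any library, while ERBB2 had 638 to 1421 counts and EPCAM 45 to 93. Of the markers of other cell types, PTPRC, CD3E and COL3A1 reached at most 3 counts, LYZ at most 6.07 and PECAM1 at most 21.

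Among the 10 genes, exons made up between 0.36% (FHIT) and 3.5% (LPP) of the span, the rest being intron. The start regions of 3 members are shown, of WWOX, which kept most of its RNA, and of FHIT and EXOC4, which lost nearly all of theirs. Each run is the 250 bases before the RefSeq start (GRCh38.p14), 5′ to 3′ on the gene's strand, and capitals mark GGGCGG (a GC box) or CCAAT on either strand.
WWOX, chr16:78099404-78099653, plus strand: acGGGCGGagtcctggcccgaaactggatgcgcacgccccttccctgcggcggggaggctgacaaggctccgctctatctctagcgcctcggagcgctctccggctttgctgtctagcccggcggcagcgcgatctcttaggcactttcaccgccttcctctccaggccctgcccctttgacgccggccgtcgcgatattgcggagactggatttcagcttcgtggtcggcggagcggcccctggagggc
FHIT, chr3:61251453-61251702, minus strand: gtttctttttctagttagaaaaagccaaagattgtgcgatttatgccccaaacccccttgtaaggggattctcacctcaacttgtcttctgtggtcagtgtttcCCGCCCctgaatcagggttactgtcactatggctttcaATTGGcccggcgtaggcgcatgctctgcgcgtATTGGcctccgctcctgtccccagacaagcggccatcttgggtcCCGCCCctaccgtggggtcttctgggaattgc
EXOC4, chr7:133252828-133253077, plus strand: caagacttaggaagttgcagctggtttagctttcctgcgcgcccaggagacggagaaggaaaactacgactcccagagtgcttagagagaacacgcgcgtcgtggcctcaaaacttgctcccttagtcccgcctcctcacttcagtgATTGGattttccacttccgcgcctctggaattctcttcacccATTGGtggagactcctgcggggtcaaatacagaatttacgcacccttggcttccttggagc

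The WWOX run held 27 CpG dinucleotides at 67.6% GC, the FHIT run 11 at 54.0% GC and the EXOC4 run 13 at 53.6% GC. In the full RefSeq windows, which add 50 bases after the start, GGGCGG stood on either strand in 7 of the 10 genes, against 45.0% of 35116 windows of that length over all genes. CCAAT was found in 5 of 10 against 34.6%, and TATAAA in 1 of 10, NAALADL2, against 11.5%. CpG counts of the 10 windows ran from 0 (NAALADL2) to 38 (WWOX), with a median of 23 against 14 over all windows. Between them lay MACROD2 (34), IMMP2L (31), GPHN (30), DPYD (29), EXOC4 (17), FHIT (13), LPP (8) and RAD51B (2). A relation of CpG count to the response was not tested. The RefSeq starts of NAALADL2, DPYD, RAD51B and GPHN lie 420761, 73941, 3762 and 740 bases from the GENCODE starts used for their spans. The windows of these genes therefore fall inside the annotated genes. For WWOX the distance is 241 bases, so nearly all of the run shown also lies inside the annotated gene. These are matches of letters and say nothing of binding.

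Summed over the 10 genes, expression was 295, 337 and 312 CPM in the DMSO libraries and 12.1, 15.4 and 11.8 CPM in the NCD libraries. With the whole table fitted by edgeR, 7 of the 9 tested members were lower with NCD past both thresholds (adjusted p 0.05, and a log2 fold change of 1 either way), none was higher and 2 did not pass. By the same rule 17.5% of all tested genes were lower and 13.5% were higher. The median log2 fold change was -5.13 over the 9 tested members and 0.04 over all tested genes. Nothing is read from that contrast, since the members were chosen on it. In RNA from bulk cultures, fewer cells expressing a gene and less of its RNA per cell cannot be told apart.

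**Figure D1:**
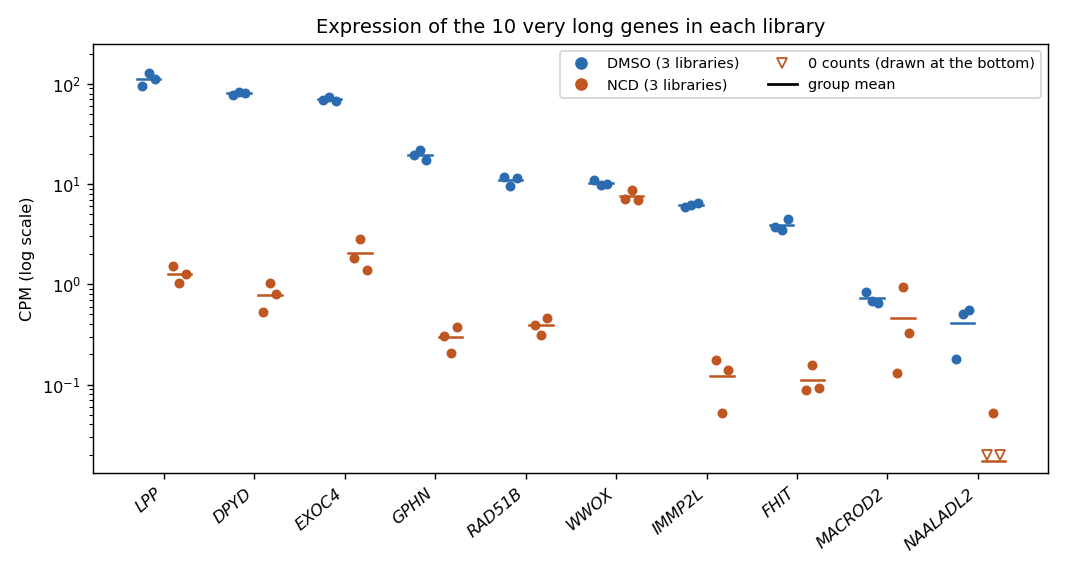
Expression of each of the 10 genes in every library (vertical axis, CPM on a log scale; blue, 3 DMSO libraries; orange, 3 NCD libraries; short lines, group means; open triangles, libraries with 0 counts). The groups lie far apart for LPP, DPYD, EXOC4, GPHN, RAD51B, IMMP2L and FHIT, lie close together for WWOX (10.3 against 7.62 CPM on average), and overlap for MACROD2.

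FHIT and WWOX are the members best known as candidate tumor suppressors, and they parted under NCD. FHIT, which encodes a diadenosine triphosphate hydrolase (chromosome 3, 59749310 to 61251459, minus strand), had 62, 61 and 82 counts under DMSO and 2, 3 and 2 under NCD. No NCD library came near a DMSO library. Its level went from 3.89 ± 0.539 CPM to 0.112 ± 0.0376 CPM (SD, n = 3 each). The log2 fold change was -5.07 (standard error 0.32), and 2.82% of the DMSO level was left, with an exact 95% counting interval of 1.12 to 5.91% that covers counting error only.

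WWOX, which encodes an oxidoreductase with WW domains that bind proline-rich partners (chromosome 16, 78099413 to 79212667, plus strand), had 182, 175 and 185 counts under DMSO and 162, 170 and 150 under NCD. Scaled to library size these were 11, 9.90 and 10.1 CPM against 7.08, 8.80 and 6.99 CPM. Every NCD library lay below every DMSO library, an ordering also found for 35.3% of all tested genes, but the gap was small. The log2 fold change was -0.44 (standard error 0.13), which did not reach the fold threshold, and 73.4% of the DMSO level was left (exact 95% counting interval 64.7 to 83.1%). With library totals in place of TMM the value was -0.24. WWOX thus made up 3.72, 2.94 and 3.25% of the summed CPM of the 10 genes with DMSO, and 58.7, 57.0 and 59.1% with NCD.

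DPYD and GPHN encode metabolic enzymes, and both were among the genes with the lowest fold changes. DPYD, the first and rate-limiting enzyme of pyrimidine breakdown and the main route by which 5-fluorouracil is cleared (chromosome 1, 97077743 to 97995000, minus strand), had 1276, 1467 and 1476 counts under DMSO and 12, 20 and 17 under NCD. The 3 NCD libraries held 0.524, 1.03 and 0.793 CPM, against 76.9, 83.0 and 80.9 CPM in the DMSO libraries. That is 104 times lower, with a log2 fold change of -6.69 (standard error 0.15), the lowest of the members and rank 9 from the bottom of all tested genes. GPHN, the scaffold of inhibitory synapses that in other cells completes the molybdenum cofactor (chromosome 14, 66507407 to 67181803, plus strand), had 324, 387 and 317 counts under DMSO and 7, 4 and 8 under NCD. Its groups were widely separated, at 19.6 ± 2.26 and 0.295 ± 0.0835 CPM (SD, n = 3 each), with a log2 fold change of -6.01 (standard error 0.20).

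IMMP2L and MACROD2 act in mitochondria and on ADP-ribosylated proteins. IMMP2L, a subunit of the inner membrane peptidase that trims imported mitochondrial proteins (chromosome 7, 110663051 to 111562517, minus strand), had 99, 110 and 119 counts under DMSO and 4, 1 and 3 under NCD. The groups were far apart, and 2.01% of the DMSO level was left (exact 95% counting interval 0.861 to 4.01%; log2 fold change -5.57, standard error 0.28). MACROD2, a hydrolase that removes ADP-ribose from proteins (chromosome 20, 13995369 to 16053197, plus strand), had only 14, 12 and 12 counts under DMSO and 3, 18 and 7 under NCD. NCD replicate 2 lay above all 3 DMSO libraries, so the groups overlapped. The log2 fold change of -0.69 (standard error 0.58) rests on that library: it was -1.65 without it, past both thresholds, and -0.25 without NCD replicate 1. At 60.8% of the DMSO level with an exact 95% counting interval of 35.9 to 102%, a change of MACROD2 was not detectable at this depth.

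EXOC4 and LPP work at the plasma membrane and at cell contacts. EXOC4, a subunit of the exocyst that tethers secretory vesicles (chromosome 7, 133253073 to 134066589, plus strand), had 1154, 1317 and 1225 counts under DMSO and 42, 55 and 30 under NCD. It kept the most RNA of the 7 strongly lower members in absolute terms, 2.03 ± 0.742 CPM against 70.4 ± 3.76 CPM (SD, n = 3 each), for a log2 fold change of -5.13 (standard error 0.18). LPP, a LIM domain protein of focal adhesions (chromosome 3, 188153284 to 188890671, plus strand), had the highest CPM of the 10 genes with DMSO. Its 1581, 2249 and 2059 expected counts with DMSO stood against 35.0, 19.6 and 26.9 with NCD, which is 87.1 times lower after scaling. The log2 fold change was -6.44 (standard error 0.17), and the groups were again far apart.

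RAD51B, which acts in DNA repair by homologous recombination (chromosome 14, 67819779 to 68730218, plus strand), had 197, 170 and 212 expected counts under DMSO and 9, 6 and 10.35 under NCD. The groups did not overlap, and 3.56% of the DMSO level was left (exact 95% counting interval 2.29 to 5.31%; log2 fold change -4.79, standard error 0.20). NAALADL2, a relative of the glutamate carboxypeptidases (chromosome 3, 174438573 to 175810552, plus strand), was barely expressed, with 3, 9 and 10 counts under DMSO and 0, 1 and 0 under NCD. A single count in 3 NCD libraries leaves 3.75% of the DMSO level, but the exact 95% counting interval of 0.0908 to 23.2% is wide.

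Passing the filter on low counts was not independent of the change: FHIT, IMMP2L and GPHN had fewer than 10 counts in every NCD library, RAD51B and MACROD2 had fewer than 10 in 2 of 3, and these 5 depended on their DMSO libraries to pass. When at least 10 counts in every library were required, 3 members (DPYD, EXOC4 and LPP) were still tested and lower.

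Per kilobase of merged exons, the order of levels with DMSO was DPYD (11.3 CPM per kb), EXOC4 (7.44), LPP (4.38), GPHN (3.26), WWOX (2.12), IMMP2L (1.83), RAD51B (1.48), FHIT (0.716), MACROD2 (0.0636) and NAALADL2 (0.0304). The ranges over the 3 libraries of neighbours in this order did not overlap, the closest in relative terms being GPHN with 2.89 to 3.65 and LPP with 3.73 to 4.98 CPM per kb. With NCD, WWOX came first at 1.56 CPM per kb (range 1.43 to 1.80), followed by EXOC4 (0.214) and DPYD (0.11). The levels of RAD51B (0.0522), LPP (0.0499) and GPHN (0.0492) with NCD lay within 10% of each other. The lowest value, 0.00127 for NAALADL2, stands for a single count.

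Over the 9 tested members, Spearman's correlation between span and log2 fold change was 0.62, and 0.32 over the 7 without WWOX and MACROD2, both as descriptions across genes of the same libraries. Over the 68 partner and neighbouring genes described further on, this correlation was -0.79, likewise across genes. The longest members, MACROD2 and FHIT, had log2 fold changes of -0.69 and -5.07, and the shortest, GPHN and LPP, had -6.01 and -6.44. The exons lie unevenly along some of these genes. In WWOX, 57.3% of the spliced bases lie before its last intron of 778.9 kb, within 333.3 kb of the start. In RAD51B, 50.5% lie within 67.38 kb of the start, before an intron of 404.7 kb. Spearman's correlation between the distance that holds the first 50% of spliced bases and the log2 fold change was 0.02 (n = 9). The deposited values are sums per gene, so the transcripts that remained cannot be told apart. Coding transcripts that span under 100 kb are annotated for WWOX (2 of 9), RAD51B (4 of 8), FHIT (1 of 5), IMMP2L (2 of 7), GPHN (2 of 7) and MACROD2 (1 of 5). The part of exon position and of short transcripts in the response was not tested.

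Genes of like span outside the 10 members give the background for these values. Of 91 tested genes over 600 kb, 72 were lower with NCD (79.1%), 3 were higher and 16 did not pass, with a median log2 fold change of -3.51 and a middle range from -4.84 to -1.35. Of 386 genes of 300 to 600 kb, 85.5% were lower, with a median of -3.07. Of 5868 genes up to 20 kb, 4.91% were lower and 21.0% higher, with a median of 0.37. FHIT, IMMP2L, DPYD, GPHN, EXOC4 and LPP lay below the middle range of the genes over 600 kb, RAD51B lay within it, and WWOX and MACROD2 lay above it. Whether the members differ from genes of their span was not tested.

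**Figure D2:**
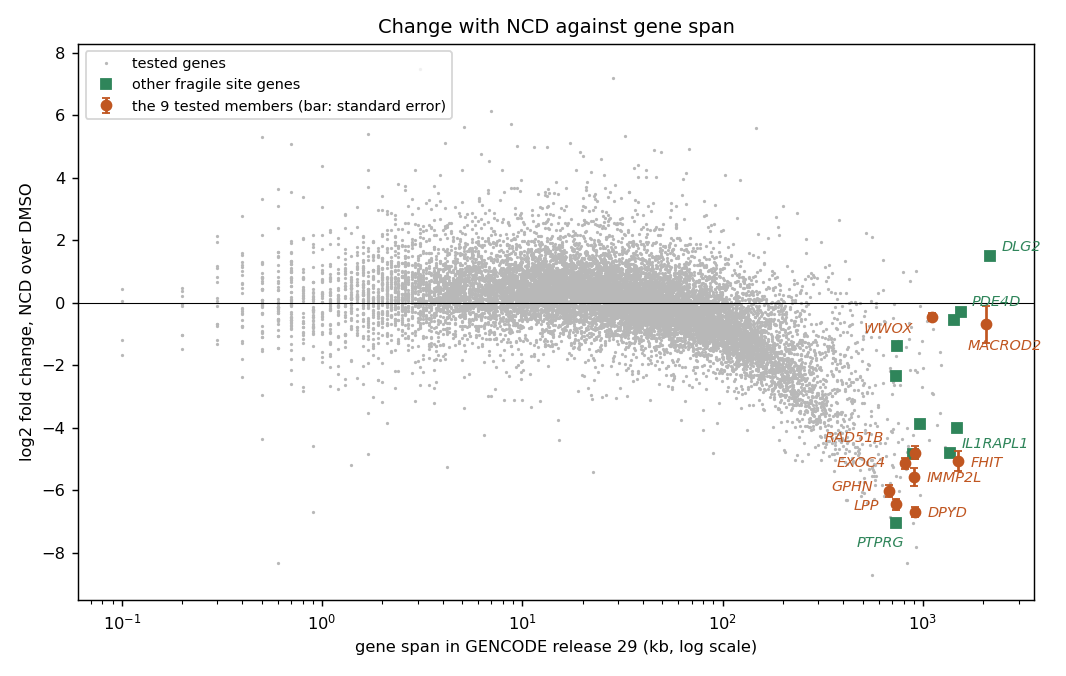
Log2 fold change of NCD over DMSO (vertical axis) against gene span (horizontal axis, kb, log scale) for tested genes with a span (gray dots), other fragile site genes (green squares) and the 9 tested members (orange circles; bars, standard error). Values fall away from 0 above about 100 kb; 7 members lie between -6.69 and -4.79, while WWOX (-0.44), MACROD2 (-0.69), PDE4D (-0.28) and DLG2 (1.49) stay high for their span.

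A list of 25 other genes at or beside fragile sites was read next to the members. Only 10 of them were tested; the other 15, DMD and LRP1B among them, had at most 6.95 counts in any library. Of the 10, 7 were lower, 1 was higher and 2 did not pass (median log2 fold change -3.11). By the same rule, 17.5% of all tested genes were lower and 13.5% higher. Of the tested genes over 600 kb outside the members, which include these 10, 79.1% were lower. The counts are therefore not read as particular to the list. As with some members, passing the filter was not independent of the change. IL1RAPL1 and CCSER1 had fewer than 10 counts in every NCD library, RORA and SDK1 in most, and these depended on their DMSO libraries. With at least 10 counts required in every library, 3 (PTPRG, NEGR1 and NBEA) were still tested and lower. PTPRG, a receptor tyrosine phosphatase, had 1668, 2066 and 1877 expected counts under DMSO and 20, 13.6 and 17 under NCD, with -7.05 as log2 fold change (SE 0.12; edgeR adjusted p = 3.31e-09). The others that fell were the neuronal adhesion gene NEGR1 (-4.83), the interleukin-1 receptor family member IL1RAPL1 (-4.81), CCSER1 (-4), the adhesion molecule SDK1 (-3.87), the kinase anchor NBEA (-2.34) and the nuclear receptor RORA (-1.39). SDK1 was uneven, with 27, 3 and 9 counts with NCD against 126 to 185 with DMSO, and its value was -4.92 without NCD replicate 1. CCSER1 had 0, 3 and 0 counts with NCD, so its value rests on NCD replicate 2. Without that library the fit gave -7.06, which depends on the prior count, as no NCD count is left.

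WWOX was not alone among very long genes in keeping its RNA. PDE4D, a cAMP phosphodiesterase of 1553.1 kb, had 41.2 ± 4.35 CPM with DMSO and 33.9 ± 5.10 CPM with NCD (SD, n = 3 each), with overlapping groups (log2 fold change -0.28, edgeR adjusted p = 0.0652). MAGI2, a synaptic scaffold of 1436.5 kb, had a log2 fold change of -0.55 (edgeR adjusted p = 0.0994). DLG2, a scaffold of the postsynaptic density and at 2172.9 kb longer than any member, rose from 13, 25 and 21 counts to 65, 59 and 77 (log2 fold change 1.49 with a standard error of 0.25; edgeR adjusted p = 0.000549). The other genes over 600 kb that rose, named after their values were seen, were ANKFN1 (1.37) and the protocadherin PCDH9 (1.03), the latter no longer past the fold threshold without DMSO replicate 1 (0.85) or NCD replicate 3 (0.86).

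Each member was then set beside its paralogs, the subunits of its complex and the enzymes of its pathway, 53 genes in all, to see whether its partners moved with it. Of the 48 that were tested, 10 were lower, 9 were higher and 29 did not pass both thresholds, and the median log2 fold change was 0.12. Over all tested genes 17.5% were lower and 13.5% higher, so these counts are not read as particular to the partners. Without the fold threshold, 17 partners were lower and 19 higher. All 9 tested partners that span over 100 kb were lower, with a median of -2.10. Of the 39 partners of up to 100 kb, 1 was lower and 9 were higher. The 100 kb cut, also used for the neighbours below, was not part of the planned comparison, and other cuts were not tried. For genes outside the members, 63.1% of those of 100 to 300 kb were lower, against 9.0% of those of 20 to 100 kb.

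In the exocyst, the other subunits over 100 kb were lower, and those of up to 100 kb did not pass the fold threshold. EXOC6B (650.1 kb) fell from 31.5 ± 4.30 to 1.39 ± 0.446 CPM (SD, n = 3 each), a log2 fold change of -4.48. EXOC2 (208.0 kb) and EXOC6 (224.8 kb) fell too, with log2 fold changes of -2.95 and -2.10. The 5 subunits of up to 100 kb, EXOC1, EXOC3, EXOC5, EXOC7 and EXOC8, had log2 fold changes from -0.58 to 0.38, none past the fold threshold, although edgeR's adjusted p was under 0.05 for EXOC5, EXOC7 and EXOC8. Among the genes related to RAD51B, none of which spans over 100 kb, RAD51C (0.93), XRCC3 (0.79), RAD51D (-0.17) and XRCC2 (-0.36) did not pass the fold threshold, beside -4.79 for RAD51B.

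Among the other partners, those over 100 kb fell, and shorter ones went either way or did not pass. A part of span in these differences was not tested. Of the genes tied to IMMP2L, the mitochondrial peptidase MIPEP (-2.85, 159.2 kb) and the glycerol phosphate dehydrogenase GPD2 (-2.25, 178.4 kb) fell. IMMP1L, the other subunit of the peptidase, had a log2 fold change of -0.88, the processing peptidase subunits PMPCA and PMPCB had 0.01 and -0.26, and CYC1 had 0.08. Of the ADP-ribose hydrolases, MACROD1 (-1.45, 167.5 kb) and PARG (-1.19, 151.9 kb) fell, OARD1 rose (1.10) and ADPRS had 0.44. Beside GPHN, MOCS1 (0.32), MOCS2 (0.33), MOCS3 (0.48) and SUOX (0.49) of the molybdenum cofactor pathway did not pass.

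Short partners that rose included the histidine triad genes HINT2 (1.21) and HINT3 (1.20), relatives of FHIT, the WWOX binding partner DVL2 (1.29), the uridine phosphorylase UPP1 (1.25) and, of the LIM proteins related to LPP, AJUBA (1.11). The LIM protein LIMD1 (-1.47, 130.9 kb) fell, and ZYX (0.02) and TRIP6 (0.74) did not pass. TYMP (1.00), WTIP (1.01) and TFR2 (1.72, from 0.472 to 1.56 CPM) were called higher but lost the call under some settings. TFRC, the transferrin receptor, was the only partner of up to 100 kb that was lower past both thresholds (-1.19, 55.0 kb). With library totals it was -0.99, short of the fold threshold. The rest had the following log2 fold changes and did not pass: HINT1 0.28, NIT1 -0.01, APTX -0.37 and DCPS 0.22 for FHIT, WBP2 0.87, TFAP2C 0.15 and TP73 -0.40 for WWOX, and TYMS -0.48 for DPYD.

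**Figure D3:**
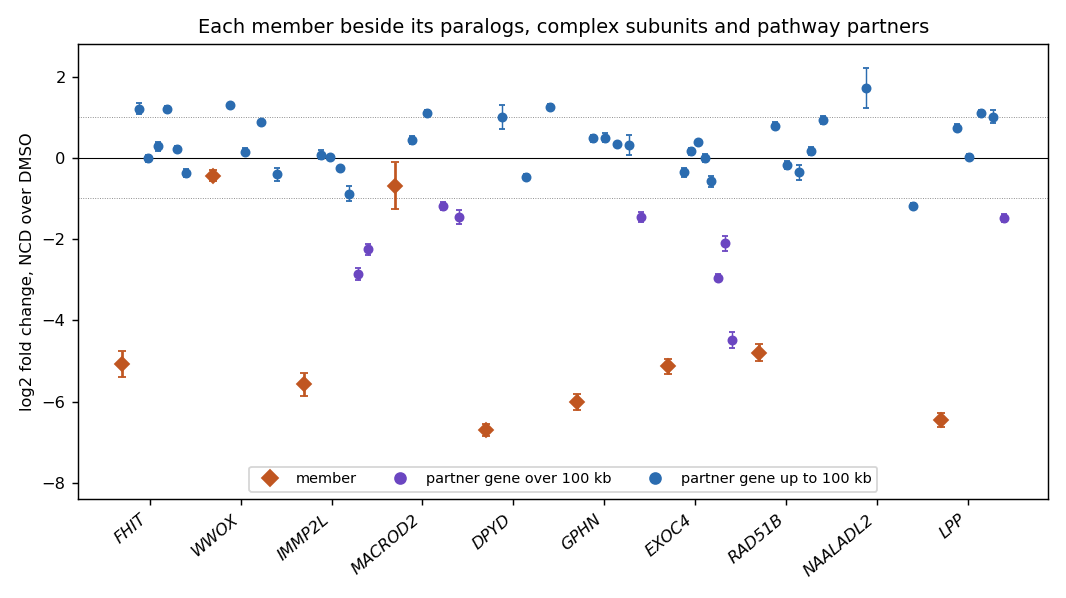
Log2 fold change of NCD over DMSO (vertical axis; bars, standard error; dotted lines, the fold threshold) for each tested member (orange diamonds) and its partner genes, placed from short to long (blue, up to 100 kb; purple, over 100 kb). The 9 purple points all lie below -1, from -1.19 to -4.48, and the blue points lie between -1.19 and 1.72.

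The nearest tested protein-coding gene on each side of every member was examined to see whether the change extended past the gene, 20 genes in all. They lay between 3 kb (ZFYVE26) and 2088 kb (DNAJB9) from their member, so not all are close to it. By their own span, the 11 neighbours over 100 kb were all lower, with a median log2 fold change of -3.19, and of the 9 shorter ones 2 were lower, 2 were higher and 5 did not pass. Outside the members, 63.1% of genes of 100 to 300 kb, 85.5% of 300 to 600 kb and 79.1% over 600 kb were lower. For all tested genes the shares were 17.5% lower and 13.5% higher. These counts are not read as particular to the neighbours. PTPRG, which also flanks FHIT at 310 kb, and DOCK4, a Rac activator 164 kb from IMMP2L, had the lowest values (-7.05 and -5.74). The fucosyltransferase FUT8 beside GPHN (-4.06), NLGN1 beside NAALADL2 (-4.23), the cristae protein CHCHD3 beside EXOC4 (-3.78) and the kinesin KIF16B beside MACROD2 (-3.19) fell as well. Without NCD replicate 3, NLGN1 had -5.10 and KIF16B -3.79. CFAP20DC beside FHIT (-2.31), TBL1XR1 beside NAALADL2 (-2.44) and P3H2 beside LPP (-2.34) fell less, and so did PTBP2 (-1.12) and SNX7 (-1.63) beside DPYD and PALS1 beside GPHN (-1.08).

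Several short neighbours did not pass the fold threshold, also beside strongly lower members. The gene nearest to any member, ZFYVE26, lies 3 kb from RAD51B and had 33.7 ± 2.84 CPM with DMSO and 41.3 ± 3.85 CPM with NCD (SD, n = 3 each), a log2 fold change of 0.29. On the other side of RAD51B, ZFP36L1, a protein that speeds mRNA decay, had -0.84. SLC35B4 beside EXOC4 had 0.47, BCL6 beside LPP 0.61 and NDUFAF5 beside MACROD2 -0.47, and none of them passed it. The chaperone gene DNAJB9, 2088 kb from IMMP2L, rose (1.18). The short NUDT7, 357 kb from WWOX, rose (1.45), and the long CDYL2, of 206.4 kb and 1385 kb from WWOX, fell (-1.54).

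**Figure D4:**
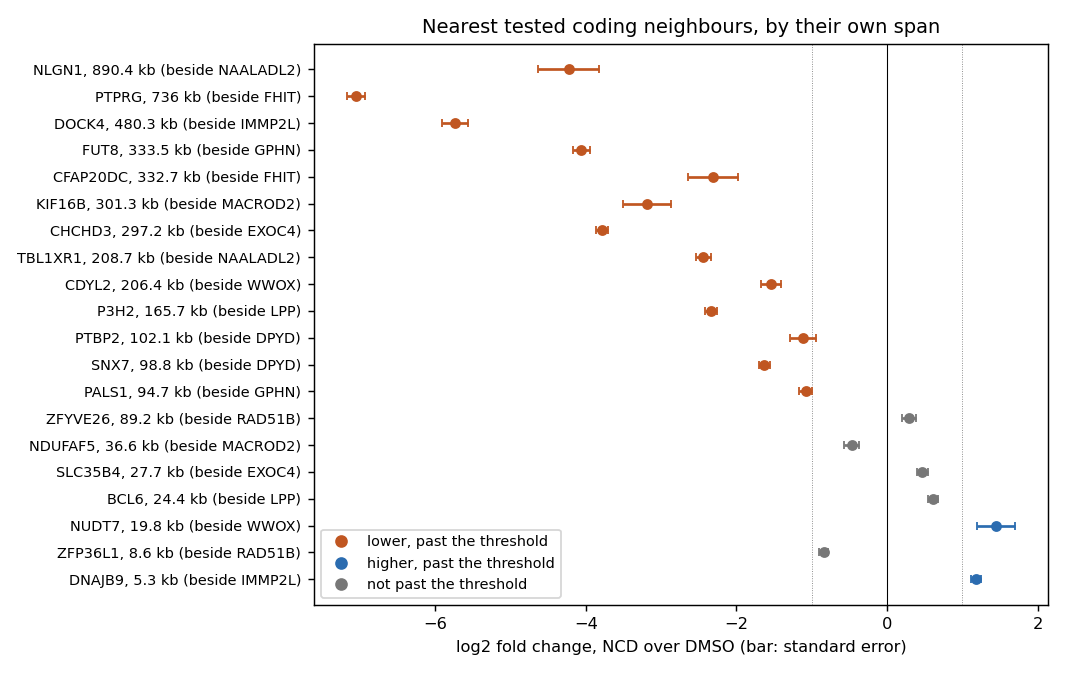
Log2 fold change of NCD over DMSO (horizontal axis; bars, standard error; dotted lines, the fold threshold) for the nearest tested coding gene on each side of the 10 genes, ordered by the neighbour's own span. The 11 neighbours over 100 kb lie from -7.05 to -1.12, and the 9 of up to 100 kb lie from -1.63 to 1.45, so the ranges overlap. SNX7 (98.8 kb, -1.63) and PALS1 (94.7 kb, -1.08) are the lowest of the 9.

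Of the genes annotated wholly inside a member, 2 were tested by edgeR, and 0 passed both thresholds, while SEC63P1 was under 0.05 in p. ENSG00000276007, inside WWOX, had a log2 fold change of 0.25 (edgeR adjusted p = 0.533), and the pseudogene SEC63P1, antisense inside DPYD, had -0.98 (edgeR adjusted p = 0.0447). SEC63P1 was called lower with limma-voom (-1.01). Whether the counts used strand is not known, so reads of overlapping and antisense genes cannot be told apart from those of the members. MIR137HG at DPYD had 147, 310 and 227 counts under DMSO and 95.0, 81 and 198 under NCD, where DPYD had 12, 20 and 17. LPP-AS2 at LPP had 53.4, 86 and 52 counts under DMSO and 19, 22 and 21 under NCD, where LPP had 35.0, 19.6 and 26.9. The overlapping counts were thus small beside those of the members with DMSO, but not with NCD. All other genes overlapping a member had at most 19 counts. MIR137HG and LPP-AS2, named after their values were seen, were lower (log2 fold changes -1.14 and -1.89), MIR137HG with overlapping groups and not in every setting.

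Genes known to guard fragile sites during replication were read in the same fit. Of 20 such genes, all tested, 3 were lower, 2 were higher and 15 did not pass, with a median log2 fold change of -0.05. Over all tested genes 17.5% were lower and 13.5% higher, so these counts are not read as particular to the list. The checkpoint kinase ATR fell from 36.8 ± 7.74 to 7.50 ± 2.43 CPM (SD, n = 3 each), a log2 fold change of -2.29. The RecQ helicase WRN fell with -1.83 and the Fanconi protein FANCI with -1.33. ATR and WRN span 129.6 and 140.0 kb, while POLD3, the longest of the 20 at 175.3 kb and named here for its span, had -0.01. The nuclease subunit EME1 rose (1.55), as did the fork protection gene TIMELESS (1.06), which was at the threshold without DMSO replicate 1 (1.00).

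The pattern of the members over the 6 libraries was common. Of 11014 candidate genes whose mean CPM was 5 or more, 1287 had a Pearson r above 0.99 with the mean centred log2 CPM of the tested members. The 5 most alike were CTDSPL, INPP5A and SPECC1 (r = 0.9999 each) and GALNT13 and PPHLN1 (r = 0.9998 each), all over 100 kb. With 2 groups of 3 libraries, r measures mostly the step between the groups, and these genes differed in size of change, from -1.49 (PPHLN1) to -5.55 (GALNT13).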

How the data were processed

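RNA from MDA-MB-231 cells was sequenced for 3 DMSO and 3 NCD libraries. The authors aligned the reads with HISAT2 and deposited expected counts per Ensembl gene, estimated by RSEM, without normalization. GRCh38 and hg38 stand in the submitters' processing notes. Tool versions, annotation release and strandedness are not given in the sources used here. In each library 25 lines with no gene were skipped. Symbols were matched for 62666 of 63241 identifiers; spans and coordinates came from GENCODE release 29, which holds 58228 of them and at least 99.437% of each library's counts.

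Expected counts were rounded, filtered with filterByExpr, scaled by TMM (factors 0.9115 to 0.9494 with DMSO, 1.059 to 1.092 with NCD) and tested with glmQLFit and glmQLFTest of edgeR 4.0.16 in R 4.3.3, over all 15295 genes with Benjamini-Hochberg adjustment. A call needed an adjusted p under 0.05 and a log2 fold change over 1 in size, the fold threshold of the study. Standard errors are the absolute log2 fold change over the square root of F. The script was tested on simulated data. Percentages left and their exact intervals use summed counts and scaled library sizes. Replicates of a group differed by more than sampling noise (chi-square per degree of freedom of at least 2.047 over genes in every pair). At this depth, genes near the filter are measured poorly.

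The 10 members and all gene lists were chosen with earlier results of these data known. Named genes are the members, every tested partner, neighbour, nested gene and other fragile site gene, the called genes of the maintenance list (up to 5 per direction) and the 5 genes most alike in pattern (Pearson r on log2 CPM with an offset of 0.1). A few of these genes are counted but not reported by name. Promoter sequences came from RefSeq (GRCh38.p14), with all 10 members matched. Alternatives were DESeq2 1.42.0, limma-voom (limma 3.58.1), library totals, RLE factors, no low-count filter, a minimum of 10 counts in every library, calls without the fold threshold, a prior count of 2, a replicate block, and leaving out each library.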

Additional observations from a re-analysis of the deposited data

How the results depend on the processing

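All 7 members called lower kept that call in every fit in which they were tested, and no result reversed under any alternative. With at least 10 counts in every library, 3 members and 3 other fragile site genes were called lower instead of 7 and 7, since fewer genes were tested, the members' median log2 fold change was -5.80 instead of -5.13, and the nested genes gave no value. A prior count of 2 moved that median to -4.79, as a prior count shrinks low genes. Without the fold threshold, 8 maintenance genes were lower and 6 higher (3 and 2 with it), 17 partners lower and 19 higher (10 and 9), 5 neighbours higher (2), and 1 nested gene lower (0). That nested gene, SEC63P1, was also called with limma-voom and with RLE factors, giving 1 in place of 0.

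With each library left out in turn, members called lower numbered 7 to 8, their median ran from -5.33 to -4.98, other fragile site genes lower 7 to 7 and higher 1 to 1, maintenance genes lower 3 to 4 and higher 1 to 2, partners lower 10 to 11 and higher 7 to 8, neighbours lower 12 to 13 and higher 2 to 2, and nested genes lower 0 to 1. The 8 members came without NCD replicate 2, with MACROD2 added.

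Same-numbered DMSO and NCD libraries did not deviate together (correlations 0.216, -0.185 and 0.023), so the numbers were not taken as pairs. With the replicate block, 7 members were lower, with a median of -5.14, and partners numbered 10 lower and 8 higher. Library totals in place of TMM moved the median of all genes from 0.04 to 0.23 and the split of all calls from 2669 lower and 2067 higher to 2181 lower and 2793 higher. PARG (-0.99), TFRC (-0.99), PTBP2 (-0.92), PALS1 (-0.88) and MIR137HG (-0.95) then missed the fold threshold. Of 878 alternative values for 68 single genes, 839 were of the same direction and side of the threshold, 28 were weaker, 3 stronger and 8 moved. TYMP, WTIP, TFR2, TIMELESS, PCDH9, PTBP2 and MIR137HG lost a call when a single library was left out. Counts under 10 in most or all NCD libraries, as for FHIT, IMMP2L, GPHN, RAD51B, MACROD2 and NAALADL2, limit the precision of their values.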
